A study of Arabidopsis thaliana with 8 samples.

Results

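The genes described here are the blue-light rises that Arabidopsis thaliana seedlings kept when they lacked both cryptochromes. They were chosen on group means of RPKM (read counts scaled for the length of the gene model and the depth of the library). B is log2 of the wild type in blue light against the wild type in darkness, and R is log2 of the cry1 cry2 mutant in blue light against the same dark wild type, each after adding 1 RPKM. A gene model was a member when B was at least 1, R was at least 0.8 times B and under B + 1, and the wild type in blue light reached 5 RPKM. This gave 95 of the 27416 gene models in the files, and 4.88% of the 1948 models that met the limits on B and on level. Since B and R chose the members, they are given as descriptions and carry no test.

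The study sequenced polyadenylated RNA of whole Col-0 seedlings to ask which genes depend on cryptochrome signalling and which on the TIR1/AFB auxin receptors. All seedlings grew on medium with 1% sucrose, after 3 days in the cold and 12 h of white light, and then spent 4 days either dark or under blue light at 15 µmol/m2/s. Each of the 4 groups had 2 libraries: the wild type was grown both dark and blue-lit, the double mutant cry1 cry2 was blue-lit, and the quadruple mutant tir1 afb1 afb2 afb3 was dark. Whether the replicates were separate cultures is not in the labels. Each p therefore sets a difference against a spread between libraries that may be technical variation alone. That spread was shared over the 4 groups and drawn towards that of other gene models of like level. No library of cry1 cry2 in darkness was used here, so in R the mutation and the light cannot be told apart.

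Between 19.3 M and 23.1 M reads lay behind each library, as inferred from the smallest steps of the RPKM values and annotated transcript lengths. CRY2 stood at 0.0574 and 0.0407 RPKM in cry1 cry2 where the blue-lit wild type had 62.3 and 63.9, while CRY1 stood at 32.8 and 33.7 RPKM where it had 47.0 and 45.1. AFB1 and AFB2 were at or under 1.45 RPKM in the quadruple mutant, against at least 35.6 RPKM in the dark wild type. AFB3 (16.7 and 18.0 against 32.6 and 36.3 RPKM) and TIR1 (60.0 and 58.8 against 75.8 and 78.1 RPKM) kept more transcript, so for these genes and CRY1 the level alone did not identify the mutant.

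Cryptochromes are the main blue-light receptors of seedling greening: when lit, they inhibit the COP1/SPA ubiquitin ligase and phytochrome-interacting factors, which otherwise hold the seedling in its dark form. They do not act alone, since phototropins steer growth, leaf position and chloroplasts in blue light, the ZEITLUPE family feeds blue light into the clock, and phytochromes also absorb blue light weakly. Auxin acts through the TIR1/AFB receptors, which mark Aux/IAA repressors for breakdown and so release auxin response genes.

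Most blue-light rises were far smaller in cry1 cry2 than in the wild type. Over the 1948 models that rose by this measure, the median of R divided by B was 0.23, with quartiles of 0.0823 and 0.42. R was under 0.8 times B in 1844 of them and below 0 in 290, and it reached B + 1 in 9. Among the 95 members, B ran from 1.00 to 3.50 with a median of 1.43, and R from 0.85 to 3.25 with a median of 1.51. B was at least 2 in 30 members, and R lay above B in 38 and below it in 57.

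**Figure D1:**
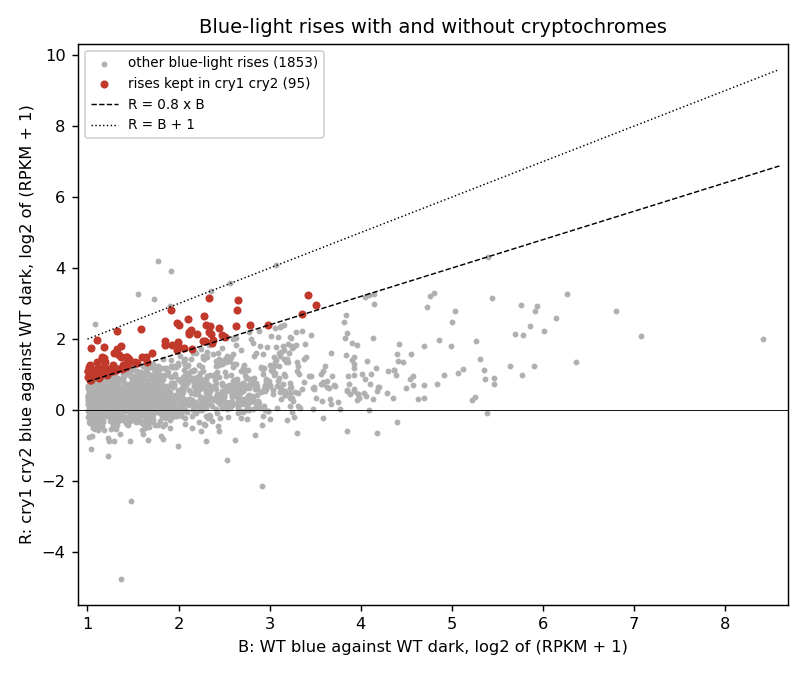
Each point is a gene model with B of at least 1 and a mean of at least 5 RPKM in the blue-lit wild type; the x axis is B and the y axis is R, both as log2 of RPKM + 1 from group means of 2 libraries. The 95 members (red) fill the band between the dashed and the dotted line at B of 3.50 or less, and most of the other 1853 models (grey) lie below it, with a median R divided by B of 0.23 over all 1948 models.

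The members spanned the range of levels. Their means in the wild type in blue light ran from 5.23 to 935 RPKM with a median of 18.9, against a median of 5.52 in the dark wild type and 19.8 in cry1 cry2. In blue light 9 members had at least 100 RPKM and 23 had under 10. On the log2 scale replicate libraries had an SD of 0.104 to 0.126 over the members, and of 0.109 to 0.118 over all models tested. In blue light, the cry1 cry2 and wild-type libraries overlapped in 28 members, with cry1 cry2 wholly above in 27 and wholly below in 40. Over all 20044 tested models cry1 cry2 stood wholly above in 51.6% and wholly below in 33.5%. The rule used these libraries, so nothing is read from these counts.

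The members were sorted into roles from their annotated products and general knowledge. This sorting was made with their values known, and its borders are loose. The glutaredoxin AT1G64500 was placed with the plastid genes, whereas NAKR3, annotated as a chloroplast-targeted copper chaperone, was left among the other products. Regulators of light signalling, greening and the clock made up 11 members, and they include components that act downstream of several photoreceptors. RPT2 (AT2G30520), an adaptor that works with the phototropins in bending towards blue light, had 39.5 and 37.6 RPKM in the dark wild type, 139 and 145 in the blue-lit wild type, and 138 and 144 in cry1 cry2. Its B was 1.86 and its R 1.84, and the blue-light libraries of both genotypes overlapped. In the quadruple mutant, in darkness, RPT2 had 191 and 178 RPKM, above all 6 other libraries. SPA1 (AT2G46340), a partner of the ligase COP1 that holds back light responses, had 7.02 and 7.43 RPKM in the dark wild type, 24.5 and 25.5 in blue light and 19.4 and 20.9 in cry1 cry2. Both cry1 cry2 libraries were below the wild type in blue light, with R of 1.36 against B of 1.66.

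B-box proteins are zinc finger regulators, several of which work with or against the greening factor HY5. STH, also called BBX25 (AT2G31380), had 1.01 and 1.05 RPKM in the dark wild type, 11.6 and 12.0 in blue light, 15.2 and 17.8 in cry1 cry2, and 38.4 and 38.5 in the dark quadruple mutant. The order of these 4 groups had no overlap, with the dark wild type lowest. BBX15 (AT1G25440) had 14.8 and 14.4, then 73.4 and 75.3, 56.3 and 61.5, and 60.2 and 57.3 RPKM in the same order of groups. BBX14 (AT1G68520) had 34.2 and 33.2, then 97.5 and 102, 79.1 and 94.2, and 123 and 114 RPKM. For both of these B-box genes with a CCT domain the cry1 cry2 libraries were under the wild type in blue light and far over darkness. A list of 12 B-box genes drawn up after seeing the values held these 3 members, while its median B was -0.08 and its median R 0.45. Within that list BBX22 had B of 1.08 and R of 0.13, so not every B-box gene with a rise in blue light kept it.

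GLK2 (AT5G44190), a transcription factor that switches on genes of the photosynthetic apparatus, had 26.7 and 25.3 RPKM in the dark wild type, 58.2 and 60.1 in blue light and 66.4 and 74.2 in cry1 cry2. Both mutant libraries were above both wild-type libraries in blue light. PIF7 (AT5G61270), a bHLH factor of the shade response, was low throughout, at 0.419 and 0.327 RPKM in the dark wild type, 6.27 and 5.84 in blue light and 5.10 and 5.01 in cry1 cry2. KAI2 (AT4G37470), the receptor for karrikins from smoke, had 20.3 and 18.6, 45.8 and 51.2, and 41.7 and 43.4 RPKM in those 3 groups. For these genes as for the B-box members, the dark wild type lay apart from both blue-light groups, as the rule required of the group means.

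Annotation notes named the circadian clock in 4 members (4.21%), against 0.278% of tested models with a RefSeq entry. PRR5 (AT5G24470), a repressor within the clock, had 4.22 and 3.99 RPKM in the dark wild type, 10.8 and 9.90 in blue light, and 10.9 and 10.3 in cry1 cry2, with the blue-light libraries overlapping. CDF1 (AT5G62430), a repressor of flowering whose protein is removed by the blue-light receptor FKF1, had 1.49 and 1.50, 4.98 and 5.51, and 9.29 and 12.1 RPKM, and its R minus B of 0.90 was the highest of all members. CCL (AT3G26740), known for a short-lived, clock-controlled transcript, was among the most abundant members at 239.8 and 247 RPKM in the dark wild type, 633 and 592 in blue light and 773 and 842 in cry1 cry2. For CDF1 and CCL both cry1 cry2 libraries lay above the wild type in blue light. Of 15 clock genes in a list of the pathway 2 met the limits on B and on level, PRR5, which was a member, and ELF4. For ELF4, B was 3.84 and R 2.68. The list had a median B of -0.36 and R of 0.54.

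**Figure D2:**
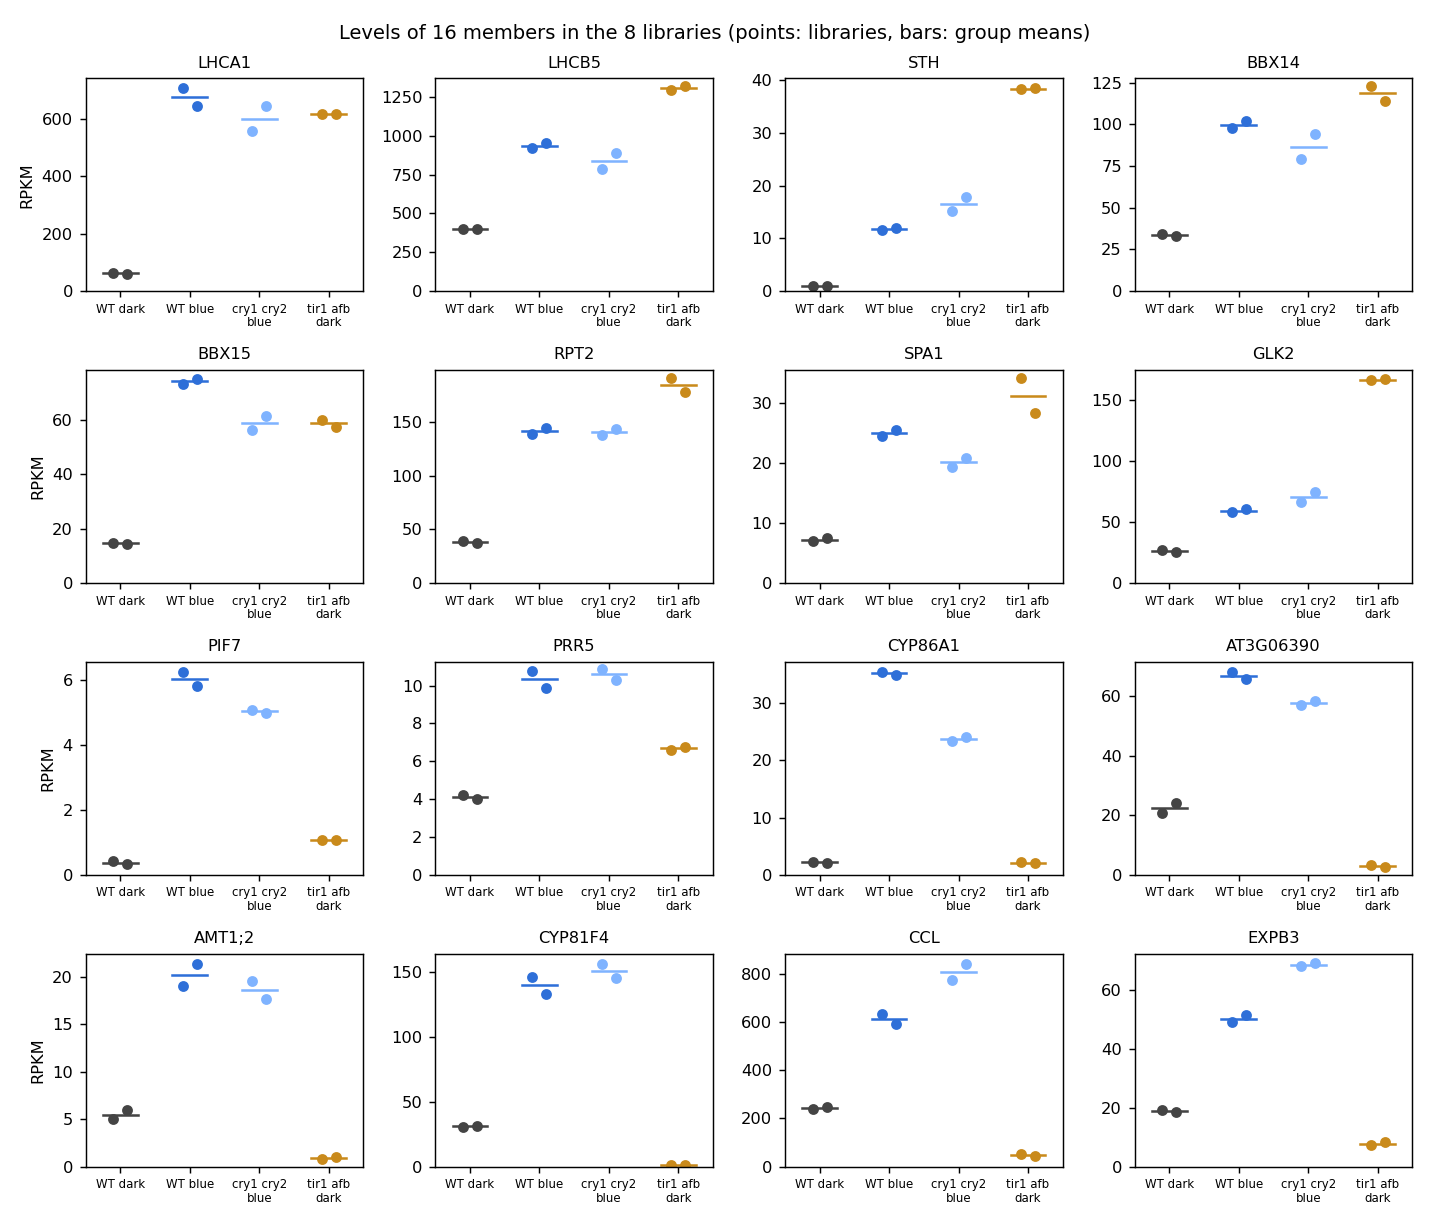
RPKM of 16 members in the 8 libraries, 1 panel per gene with its own y axis from 0; points are libraries and bars the means of 2 libraries for the dark and the blue-lit wild type, cry1 cry2 in blue light and tir1 afb1 afb2 afb3 in darkness. Both blue-light groups are above the dark wild type in every panel, as the rule required of the means. The dark quadruple mutant, which the rule did not use, ranges from the top (STH, 38.4 and 38.5 RPKM) to near 0 (CYP81F4, 1.44 and 1.12 RPKM).

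Plastid, pigment and light protection genes made up 8 members. LHCA1 (AT3G54890), an antenna protein of photosystem I, had 64.4 and 60.6 RPKM in the dark wild type, 709 and 646 in blue light, and 557 and 646 in cry1 cry2, for B of 3.42 and R of 3.25. LHCB5 (AT4G10340), a minor antenna of photosystem II, was the most abundant member, at 400.3 and 399 RPKM in darkness, 919 and 950.4 in blue light and 789 and 892 in cry1 cry2. ABA1 (AT5G67030), the zeaxanthin epoxidase of the xanthophyll cycle and of abscisic acid synthesis, had 22.3 and 21.8, 48.5 and 49.1, and 45.7 and 54.2 RPKM. In LHCA1 and ABA1 the blue-light libraries of both genotypes overlapped, and in LHCB5 those of cry1 cry2 were lower. UVR3 (AT3G15620), a photolyase that uses blue light to repair DNA, had 4.92 and 5.06 RPKM in darkness, 12.9 and 10.7 in blue light and 11.8 and 10.9 in cry1 cry2.

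Most other genes of the antennae and the photosystems were not members. Of 43 light-harvesting and photosystem genes, 34 met the limits on B and on level, and of these 34 LHCA1 and LHCB5 were members. This share is near the 4.88% of members among all 1948 models within these limits, so it sets the list apart in neither direction. The list had a median B of 1.89 and R of 1.00. LHCA2 had B of 1.63 and R of 1.00, LHCB4.1 had 1.26 and 0.73, and the photosystem I subunit PSAD1 had 1.95 and 1.25, all short of the limit. LHB1B1 came just short of it with B of 5.40, at 2159 RPKM in the blue-lit wild type and 1005 in cry1 cry2, and LHB1B2 just passed the upper limit with 2.56 and 3.58; reads can move between such near-identical LHCB1-type copies, so neither value is certain. Several antenna genes were lower in the wild type in blue light than in darkness but higher in cry1 cry2, as in LHCB3 with B of -0.49 and R of 1.57.

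No member came from the lists of photosynthetic electron transport (9 genes), the Calvin cycle (18), chlorophyll synthesis (18), plastid sigma factors (6), flavonoids (11) or aliphatic glucosinolates (14). In the same order, 8, 17, 7, 5, 5 and 12 of their genes met the limits on B and on level. In these lists the median B was 0.68 to 3.16 while the median R was 0.01 to 0.67. Calvin cycle genes gave the widest gap between a large B and no R, with medians of 2.66 and 0.09. The lists of auxin response (19 tested genes) and reference genes (5) could hold no member, since none of their genes met the limits. Jasmonate (16 genes, 4 within the limits) and stomatal lineage and guard cells (9 genes, 1 within them) also held no member. The list of carotenoid synthesis and photoprotection held ABA1 of 16 genes, with 11 within the limits. Of all 1948 models within the limits 4.88% were members, so a list of such size may hold none, and nothing is read from these absences. Over all tested models the median B was -0.06 and the median R 0.06.

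None of the 12 genes of other photoreceptors was a member either, and 3 of them met the limits on B and on level. PHOT2, the phototropin of strong blue light, had B of 1.47 and R of 0.73, the clock receptor FKF1 had 1.43 and 0.52, and PHYA had -3.01 and -0.40. Transcripts of the other receptors covered a range from well under to above the dark level.

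**Figure D3:**
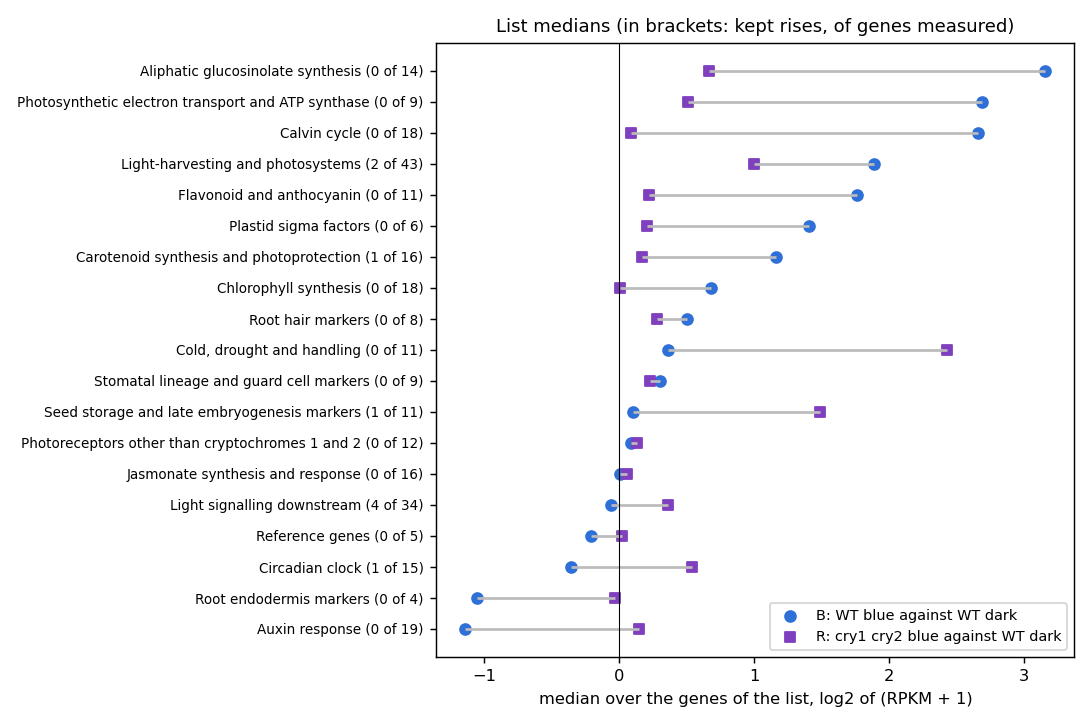
Median B (blue circles) and median R (purple squares) over the tested genes of each of 19 lists, on the x axis as log2 of RPKM + 1; the brackets give the members among the genes measured. R lies below B in all photosynthesis lists, at 0.09 against 2.66 for the Calvin cycle and 1.00 against 1.89 for light-harvesting genes. It exceeds B in several other lists. Among these are the cold and drought list (2.43 against 0.36), the seed list (1.49 against 0.10), auxin response (0.15 against -1.14) and the circadian clock (0.54 against -0.36).

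A group of 6 members was sorted under root barriers or root nutrient uptake. Of these, 3 are uncharacterised and were placed there only by their family, UPF0497. CYP86A1 (AT5G58860), the fatty acid hydroxylase that makes aliphatic monomers of root suberin, had the largest B of all members. It had 2.24 and 2.14 RPKM in the dark wild type, 35.5 and 35.0 in blue light, 23.4 and 24.1 in cry1 cry2 and 2.16 and 2.08 in the dark quadruple mutant. Both blue-light groups stood apart from both dark groups, and the dark groups overlapped. Other members were also low in both dark groups. MYB93 (AT1G34670), a root endodermis regulator of lateral root formation, had 0.755 and 0.765, 7.29 and 6.97, 6.27 and 7.13, and 0.534 and 0.213 RPKM in the same order of groups. A class III peroxidase (AT2G35380) had 1.53 and 1.60, 25.8 and 24.8, 15.1 and 16.4, and 1.00 and 0.997 RPKM, and its R minus B of -0.65 was the lowest of all members. In both genes the quadruple mutant was below the dark wild type, without overlap.

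Of the 34 tested genes annotated UPF0497, the family related to Casparian strip membrane proteins, 3 were members. AT4G20390 had 9.49 and 10.9 RPKM in the dark wild type, 63.2 and 59.0 in blue light and 47.0 and 48.5 in cry1 cry2, AT3G06390 had 20.6 and 24.1, 68.1 and 65.6, and 57.1 and 58.5, and AT4G15620 had 2.00 and 1.91, 14.4 and 13.4, and 13.0 and 12.1. The ammonium transporter AMT1;2 (AT1G64780) had 5.01 and 5.95, 19.1 and 21.4, and 19.6 and 17.7 RPKM, and the iron uptake transporter IRT1 (AT4G19690) had means of 4.36 ± 0.635, 9.76 ± 0.343 and 10.5 ± 0.456 RPKM (SD, n = 2). For AMT1;2 the blue-light libraries of both genotypes overlapped, whereas IRT1 was slightly higher in cry1 cry2. IRT1 sat at the edge of the rule with B of 1.00.

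Most other suberin genes were not members. In a list of 18 suberin genes drawn up after seeing the values, 6 met the limits on B and on level. CYP86A1 and MYB93 were members, and the median B of the list was 0.53 and R 0.09. The hydroxylase CYP86B1 had B of 1.19 and R of 0.17, the reductase FAR4 had 1.25 and 0.35, and FAR5 had 2.85 and 1.60. Markers of root tissues were read beside these members. The 4 root endodermis markers summed to 238 and 240.0 RPKM in the dark wild type, 101 and 95.0 in the blue-lit one, 251 and 231 in cry1 cry2 and 86.1 and 85.2 in the quadruple mutant. The 8 root hair markers summed to 66.5 and 76.1, 117 and 104, 84.4 and 86.6, and 15.7 and 16.0 RPKM. None of these markers was at 0 in every library. The summed endodermis markers were lower in the wild type in blue light, where these members were higher. CASP1 was the largest part of that sum, with means of 183 RPKM in the dark wild type and 63.4 in the blue-lit one. In the same order, SHR (19.1 and 12.4 RPKM) and MYB36 (17.7 and 3.65) were also lower. SCR was nearly level, at 19.1 and 18.6 RPKM, so the sum does not speak for each marker. The part of these markers in the result was not tested. In whole seedlings, fewer cells of a type and less RNA per cell cannot be told apart.

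Promoters of CYP86A1 and LHCA1 are shown because these members had the largest B of the set and stood differently in the dark quadruple mutant, where LHCA1 had risen and CYP86A1 did not pass the test, and because both hold the I-box core of light-regulated plant promoters. Each run is the 250 bases before the annotated gene start, 5′ to 3′ on the gene's strand, read from the RefSeq genome of the build TAIR10.1; the deposited files give no coordinates. Capitals mark GATAAG or its complement CTTATC.
LHCA1, chr3:20341177-20341426, minus strand: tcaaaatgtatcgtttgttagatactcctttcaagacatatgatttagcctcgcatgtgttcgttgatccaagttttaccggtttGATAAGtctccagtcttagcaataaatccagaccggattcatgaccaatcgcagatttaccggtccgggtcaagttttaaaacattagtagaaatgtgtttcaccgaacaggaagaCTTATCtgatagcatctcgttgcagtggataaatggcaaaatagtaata
CYP86A1, chr5:23768112-23768361, minus strand: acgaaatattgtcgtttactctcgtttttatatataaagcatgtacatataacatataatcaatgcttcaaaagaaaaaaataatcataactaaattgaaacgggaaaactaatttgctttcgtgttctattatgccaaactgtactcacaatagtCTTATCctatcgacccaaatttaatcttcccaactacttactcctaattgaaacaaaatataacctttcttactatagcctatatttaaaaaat

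Shares of promoters with a motif were compared as a description, with no test. GATAAG or its complement was found in 13 of 95 member promoters (13.7%) and in 12.5% of 19816 promoters of the same length. The G-box CACGTG, which HY5 and phytochrome-interacting factors bind, was in 7.4% against 7.5%, and the CCA1-binding core AATCTA in 23.2% against 23.4%. The evening element core AATATCT was in 7.4% against 10.2%, the TCP-type GGCCCA in 7.4% against 16.2% and the telo-box core AAACCCT in 3.2% against 6.1%, each read on both strands. None of these 6 motifs contains another. A match is a description of the sequence, and no match says only that the letters are not in this window.

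Cytochromes P450 were the most frequent family, with 8 of 95 members (8.42%) so annotated against 0.722% of all tested models with a RefSeq entry. CYP81F4 (AT4G37410), which modifies indole glucosinolates, had 30.7 and 31.1 RPKM in the dark wild type, 146 and 133 in blue light, 156 and 145 in cry1 cry2 and 1.44 and 1.12 in the dark quadruple mutant. The blue-light libraries overlapped, and the quadruple mutant was far below all others. The uncharacterised model AT4G37409 followed it closely, with 24.0 and 26.9, 121 and 106, 127 and 113, and 1.19 and 1.17 RPKM, but it overlaps CYP81F4 by 2140 bases on the other strand. The labels do not state that counting used strand, so their reads cannot be told apart and they may be 1 signal.

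CYP706A1 (AT4G22690) and CYP706A2 (AT4G22710) are near neighbours on chromosome 4 with 1 gene between them. CYP706A1 had 4.21 and 4.32 RPKM in the dark wild type, 41.5 and 39.7 in blue light and 30.0 and 23.5 in cry1 cry2, and CYP706A2 had 4.29 and 4.70, 24.2 and 22.5, and 19.0 and 15.3. CYP706A2 met the limit on R with no margin (1.72 against 1.72), and both genes are copies between which reads could be split. CYP708A3 (AT1G78490) stood out in the other direction, with 2.32 and 2.57 RPKM in the dark wild type, 11.5 and 12.6 in blue light and 22.7 and 23.6 in cry1 cry2. CYP71B4 (AT3G26280) was nearly off in both dark groups, at 0.242 and 0.346 RPKM in the wild type and 0.343 and 0.246 in the quadruple mutant, against 6.53 and 5.54 in blue light and 5.14 and 5.76 in cry1 cry2. Among other enzymes, MIPS1 (AT4G39800), the first enzyme of inositol synthesis, had 42.4 and 41.6, 103 and 117, and 120.3 and 123 RPKM in the first 3 groups, and the glucosyltransferase UGT71B1 (AT3G21750) had 4.42 and 4.67, 27.4 and 28.2, and 19.1 and 22.2.

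Cell wall genes and peroxidases made up 9 members, with enzymes that loosen or remodel walls. XTH7 (AT4G37800), which cuts and rejoins xyloglucan, had 33.2 and 33.3 RPKM in the dark wild type, 142 and 132 in blue light and 195 and 165 in cry1 cry2. The expansin EXPB3 (AT4G28250) had 19.2 and 18.6, 49.0 and 51.7, and 68.2 and 69.2 RPKM, and EXPA15 (AT2G03090) had 7.74 and 7.94, 18.6 and 18.8, and 23.4 and 24.4. In these 3 genes both cry1 cry2 libraries were above both wild-type libraries in blue light. PME5 (AT5G47500), a pectin methylesterase, had 2.54 and 3.08, 12.8 and 14.2, and 12.4 and 12.9 RPKM.

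Channels and transporters made up 7 members. KT2/3 (AT4G22200), a potassium channel, had 0.801 and 1.11 RPKM in the dark wild type, 9.63 and 10.7 in blue light and 6.82 and 7.61 in cry1 cry2. ABCG22 (AT5G06530), an ABC transporter linked to stomatal opening, had 5.39 and 5.66, 13.3 and 12.7, and 23.8 and 25.9 RPKM, so that R exceeded B by 0.88. Beside it, the 9 stomatal lineage and guard cell markers summed to 51.3 and 49.5, 65.2 and 64.7, and 51.7 and 57.5 RPKM, and to 78.5 and 77.6 in the quadruple mutant; their part in the result was not tested. The remaining 5 had B of 1.04 to 2.06 and means of 6.65 to 15.7 RPKM in the blue-lit wild type.

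Transcription factors outside light signalling included several that time flowering. SVP (AT2G22540), a floral repressor, had 9.22 and 8.83 RPKM in the dark wild type, 26.4 and 25.3 in blue light and 27.8 and 26.8 in cry1 cry2. SNZ (AT2G39250), an AP2-type floral repressor, had 1.33 and 1.19, 12.4 and 13.8, and 14.0 and 15.7 RPKM. AGL20, also called SOC1 (AT2G45660), which promotes flowering, had 1.84 and 1.98, 6.27 and 6.27, and 5.68 and 5.10 RPKM. Both repressors were higher in cry1 cry2 than in the blue-lit wild type and the promoter lower, each by less than 0.20 in R minus B.

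Lipid and desiccation genes made up 7 members, and seed and stress markers were read beside them. OLEO2 (AT5G40420), an oil body coat protein, had 2.38 and 1.93 RPKM in the dark wild type, 13.0 and 9.94 in blue light and 13.1 and 19.1 in cry1 cry2. The 11 seed storage and late embryogenesis markers, OLEO2 among them, summed to 11.9 and 10.4, 26.6 and 19.1, 39.4 and 60.4, and, in the quadruple mutant, 111 and 115 RPKM. The dehydrin LTI30 (AT3G50970) had 22.5 and 22.1, 52.1 and 50.6, and 42.6 and 49.6 RPKM, and the plastid cold-regulated protein COR413IM1 (AT1G29395) had 14.5 and 13.6, 75.9 and 74.3, and 122 and 146. A list of 11 cold, drought and handling genes held no member, and summed to 1087 and 1019 RPKM in the dark wild type, 943 and 939 in blue light, 2088 and 2327 in cry1 cry2 and 1416 and 1355 in the quadruple mutant. COR47 was the largest part of these sums, with means of 916 and 723 RPKM in the dark and blue-lit wild type. Its genes did not move together, and 4 of the 11 met the limits on B and on level. COR15A and COR15B had B of 5.01 and 5.94 and R of 2.49 and 2.93, whereas RAB18 had B of -1.13 and R of 4.35. For COR413IM1, whose R exceeded B by 0.82, the part of these stress genes was not tested. The cold-induced KIN2 was kept out by the upper limit, at B of 2.36 and R of 3.36.

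The remaining 27 members have other or undescribed products, with B of 1.00 to 2.79. The filaggrin-like AT1G64370 was among the most abundant members, with 133 and 124 RPKM in the dark wild type, 313 and 285 in blue light, 242 and 272 in cry1 cry2 and 33.5 and 31.3 in the dark quadruple mutant. AT1G78460, a SOUL heme-binding protein, had the highest B of this group, with 6.71 and 6.62, 55.0 and 48.8, 42.9 and 36.0, and 17.7 and 18.6 RPKM. For both genes cry1 cry2 was below the wild type in blue light, and they lay on opposite sides of the dark wild type in the quadruple mutant. The undescribed AT5G44580 had 43.2 and 35.4, 112 and 84.1, 121 and 123, and 63.3 and 63.6 RPKM, and the plastid fibrillin AT4G22240 of the pigment group had 38.4 and 42.5, 95.5 and 98.9, 87.1 and 95.9, and 64.9 and 63.6. MPK12 (AT2G46070), a protein kinase of guard cells, was low, at 2.23 and 2.39 RPKM in the dark wild type, 7.06 and 8.79 in blue light and 7.78 and 9.04 in cry1 cry2. In AT4G22240 and MPK12 the blue-light libraries of both genotypes overlapped.

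Genes on either side of the limits of the rule differed little. IRT1, AT3G62820 and AT2G43800 were just inside the limit on B at 1.00, and AT5G45950 and CEP3, also at 1.00 after rounding, and PKS1, a phytochrome and phototropin substrate, at 0.98, were just outside. AT5G44572 and MC3 were just inside 0.8 times B, with R of 1.90 and 0.92, and AT1G65900 and BGLU10 just outside, with R of 1.12 and 1.17 against 1.14 and 1.19. CDF1, CYP708A3 and ABCG22 were nearest under B + 1, with R of 2.22, 2.81 and 1.99, and BGLU18 was over it with R of 4.09 against 4.07. AT3G56260, CDF1 and MYB47 were just above the limit on level, at 5.23, 5.25 and 5.84 RPKM, and CPL3, AT2G46640 and AT1G62030 just under it, at 4.76, 4.47 and 4.38.

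The rule was also applied to single libraries of each group. Replicate 1 libraries chose 93 genes and replicate 2 libraries 113, with 68 in common, which is 73.1% of the first and 60.2% of the second. The genes chosen in replicate 1 had a median B of 1.44 and R of 1.53 in replicate 2, and those chosen in replicate 2 had 1.47 and 1.42 in replicate 1. Of the 93 genes, 81 had B of at least 1 and 85 had R of at least 0.8 times B in replicate 2, and of the 113 genes 101 and 77 did in replicate 1. The lowest R of a gene read in the other replicate was 0.37. These libraries were used by the rule, so the counts describe how far the choice rests on single libraries.

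The quadruple auxin receptor mutant was not used by the rule, and its contrast with the dark wild type was tested with limma over 20044 models. The dark wild type stands in both, so the contrast is not fully independent of the rule: a gene whose dark libraries came out low by chance is more easily chosen and more easily called risen. The members changed in both directions. At an adjusted p under 0.05, 56 of 95 had risen (58.9%) and 32 had fallen (33.7%), whereas 27.5% of all tested models had risen and 51.4% had fallen, 78.9% in either direction. Changes of at least 2-fold numbered 33 rises and 13 falls. The median log2 fold change was 0.51 over the members and -0.24 over all tested models. Among the 1853 other blue-light rises, 83.1% had risen and 7.77% had fallen, with a median of 1.03, and they share the same dark libraries. With libraries scaled to their upper quartiles the median of all models was -0.10, a shift of 0.15, with 6703 risen and 8684 fallen, and the members counted 56 risen and 29 fallen.

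Directions differed between roles, and the difference between roles was not tested. Of the 11 light, greening and clock regulators 10 had risen, with a median of 1.92, and CCL had fallen. Beside them, 27.5% of all tested models and 83.1% of the other blue-light rises had risen, so most rises here are shared with blue-light rises in general. STH had risen most of all members (log2 fold change 4.28, SE 0.08, limma adjusted p = 9.67e-12). GLK2, at 166 and 167 RPKM in the dark mutant, had risen by 2.63 (SE 0.06, adjusted p = 2.41e-11), RPT2 by 2.23 (SE 0.06) and SPA1, at 34.1 and 28.3 RPKM, by 1.96 (SE 0.09). For all 4 genes the dark mutant was above the wild type in blue light. PIF7, at 1.06 and 1.07 RPKM, and PRR5, at 6.60 and 6.77, had risen by 0.59 each and stayed below it. CCL, at 53.2 and 45.2 RPKM, had fallen (-2.29, SE 0.08, adjusted p = 2.69e-10). In the list of 34 light signalling genes that names 4 of these members, 21 had risen and 8 had fallen, with a median of 0.75.

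Of the 8 plastid, pigment and light protection members 6 had risen, beside 27.5% of all tested models and 83.1% of the other blue-light rises. LHCA1 reached 617 and 619 RPKM in the dark mutant (3.29, SE 0.08, limma adjusted p = 2.41e-11), and LHCB5 1292 and 1323 RPKM (1.71, SE 0.07). All 43 genes of the light-harvesting and photosystem list had risen, with a median of 1.93, whether or not their blue-light rise was kept in cry1 cry2. The glutaredoxin AT1G64500, at 104 and 109 RPKM against 16.2 and 16.8 in the dark wild type, had risen by 2.62 (SE 0.06). COR413IM1 (-0.56, SE 0.09) and UVR3 (-1.22, SE 0.14) had fallen.

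Of the 6 members of the root group 4 had fallen, beside 51.4% of all tested models and 7.77% of the other blue-light rises. In this group 1 had risen, and CYP86A1 did not pass (-0.03, SE 0.07, limma adjusted p = 0.696). AT3G06390, at 3.23 and 2.47 RPKM in the mutant, had fallen by 2.60 on the log2 scale (SE 0.10, limma adjusted p = 4.9e-10), AMT1;2, at 0.825 and 1.01 RPKM, by 1.76 (SE 0.10), AT4G20390 by 1.25 (SE 0.07) and IRT1 by 0.98 (SE 0.12). AT4G15620, at 54.6 and 53.0 RPKM, had risen (4.21, SE 0.07), so the 3 UPF0497 members did not share a direction. Beside these values, 7 of 8 root hair markers and 3 of 4 root endodermis markers had fallen, with medians of -1.71 and -1.59, and so had all 9 genes of a Casparian strip list drawn up after seeing the values. The part of root tissue in these falls was not tested.

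The other roles held both rises and falls, except for the channels and transporters, where none had fallen. CYP81F4 had the largest fall of all members (-3.81, SE 0.08, limma adjusted p = 1.19e-11) with its overlapping partner AT4G37409 (-3.60, SE 0.08), while CYP706A1 (2.21, SE 0.09), CYP706A2 (2.06, SE 0.09) and UGT71B1 (2.23, SE 0.08) had risen. The methyltransferase-like AT5G37990, at 0.161 and 0.368 RPKM against 6.84 and 5.26 in the dark wild type, had fallen by 2.48 on the log2 scale (SE 0.12). Among the 9 cell wall members 5 had fallen, EXPB3 by the most (-1.19, SE 0.07), and 3 had risen, among them PME5 (1.14, SE 0.09). These shares were close to the 51.4% fallen and 27.5% risen of all tested models. They were far from the 7.77% fallen and 83.1% risen of the other blue-light rises. Of the 7 channels and transporters 6 had risen, beside 27.5% of all tested models and 83.1% of the other blue-light rises. ABCG22 had risen by the most among them (1.62, SE 0.08), and KT2/3 gave 0.00 (SE 0.11, limma adjusted p = 0.999).

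Regulators of flowering time split in this contrast: the repressors SVP (1.44, SE 0.06) and SNZ (2.27, SE 0.10) had risen and the promoter AGL20 had fallen (-0.74, SE 0.10, limma adjusted p = 2.92e-05). The lipid-transfer proteins AT5G48490 and DIR1 (AT5G48485), which is needed for systemic resistance, are direct neighbours on chromosome 5. AT5G48490 went from 2.55 and 1.99 RPKM to 24.8 and 30.6 (3.13, SE 0.12, adjusted p = 8e-10), whereas DIR1 went from 28.1 and 27.6 to 23.1 and 25.3 (-0.20, SE 0.06, adjusted p = 0.01). DIR1 lost its call without replicate 1 of the mutant (-0.14, adjusted p = 0.0821) and under upper-quartile scaling (-0.03, adjusted p = 0.685). LSU2 (AT5G24660), a gene induced by sulfur shortage, had risen from 5.31 and 5.33 to 39.9 and 37.7 RPKM (2.65, SE 0.07). The fall of AT3G51642 (-2.58, SE 0.27) rests on few inferred reads, 16 and 15 in the dark wild type against 2 and 0 in the mutant.

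**Figure D4:**
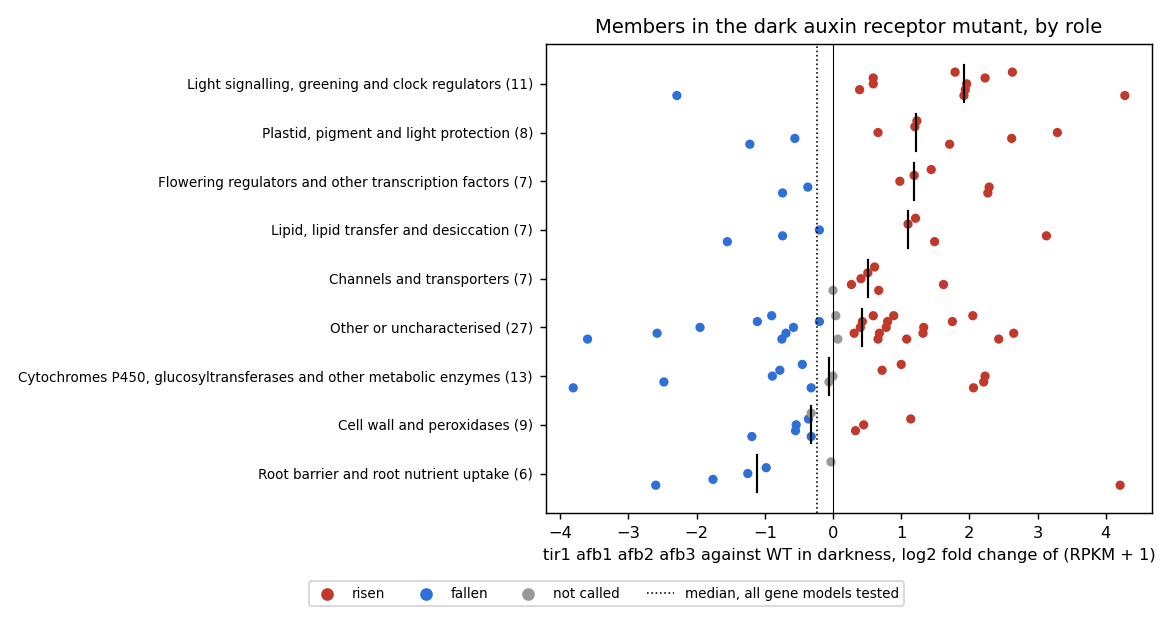
Log2 fold change of tir1 afb1 afb2 afb3 against the wild type, both in darkness and on RPKM + 1, for the 95 members in 9 roles (number of genes in brackets); each point is a gene, red where limma called it risen, blue where fallen and grey where neither, black bars are medians and the dotted line is the median of all 20044 tested models (-0.24). The light regulators lie mostly to the right with a median of 1.92, and 4 of the root group lie to the left, with a group median of -1.12, CYP86A1 at -0.03 and AT4G15620 at 4.21.

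When its levels were set beside those of the blue-lit wild type, the dark quadruple mutant was wholly below in 75 members, wholly above in 19 and overlapped in 1, while over all tested models it was wholly below in 60.2% and wholly above in 27.6%. The rule required a raised level in the blue-lit wild type, which favours a lower standing of the mutant. Against the dark wild type its libraries stood wholly above in 56 members and wholly below in 34, and overlapped in 5, where all tested models had 31.8% above and 57% below. CYP86A1, KT2/3 and CYP71B4, at 2.16 and 2.08, 1.01 and 0.887, and 0.343 and 0.246 RPKM in the mutant, are members whose high levels were seen in the blue-light groups alone. STH, GLK2, RPT2, LHCB5 and the glutaredoxin AT1G64500 are members whose highest levels were in the dark mutant.

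The members lay on all 5 chromosomes, 23 on chromosome 1, 17 on chromosome 2, 18 on chromosome 3, 17 on chromosome 4 and 20 on chromosome 5. Besides the CYP706A pair, CYP81F4 with AT4G37409 and DIR1 with AT5G48490, the receptor-like kinase AT4G22730 lies next but 1 to CYP706A2. No member was annotated as ribosomal, against 0.55% of tested models with a RefSeq entry. Annotation notes named light in 9 members (9.47% against 1.15%), the circadian clock in 4 (4.21% against 0.278%) and the root in 7 (7.37% against 2.82%), and 7 members had no described product (7.37% against 6.63%).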

How the data were processed

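Polyadenylated RNA of Arabidopsis seedlings was sequenced in 8 libraries, 2 for each of 4 groups, grouped by the labels. The submitters' processing notes name Bowtie2 2.2.2 and the build TAIR10; the way reads were assigned to genes is not given in the sources used here. The authors' deposited values are RPKM for each gene model, as the headers of the files state. Read numbers were inferred from these values and the inferred library totals, at the smallest model length that gave whole reads in all libraries. All 95 members gave whole reads to within 0.02. Their median was 182 reads in the dark wild type and 708 in the blue-lit wild type, and the lowest value was 0. Precision is limited most where reads are few. Adding 1 RPKM understates the change of low genes, and RPKM is relative to the total of each library.

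The members, the 19 gene lists (282 genes) and 3 lists added later were chosen with earlier results of these data known. The test took the 20044 models that reached 1 RPKM in 2 or more libraries, all 95 members among them. It was a single fit of the 8 libraries with limma 3.58.1 in R 4.3.3. The fit used eBayes with trend on log2 of RPKM + 1, with 4 residual and 6.96 prior degrees of freedom. Adjustment was by Benjamini-Hochberg over all models, with 0.05 as the threshold, and the script was tested on simulated data. The direction is stated as risen or fallen for models past that threshold.

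Members were named by rule: the 12 highest and the 12 of largest B, list members, up to 8 rises and 8 falls in the tested contrast, the 3 highest and 3 lowest R minus B, 3 on each side of each limit, and neighbours or families; the other names were chosen after their values were seen. Names, products and promoters came from RefSeq on TAIR10.1, matched by locus name (26719 models). Alternatives were other pseudocounts, filters, scalings and limits, a replicate block and each library left out.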

Additional observations from a re-analysis of the deposited data

How the results depend on the processing

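The size of the set moved with the limit on R: 155 genes at 0.7 times B and 61 at 0.9 times B. It was 112 with a pseudocount of 0.25, 114 and 72 with a level limit of 1 and 10 RPKM, 92 with upper-quartile scaling (81 of them members), 104 with no upper limit on R, and 86 to 110 with a library left out. The counts of 56 risen and 32 fallen members stayed within 53 to 56 and 29 to 32 over 16 alternatives, and within 53 to 55 and 30 to 32 with a library left out. The replicate numbers were not shown to pair the samples, since deviations of same-numbered libraries correlated by -0.12 to 0.14, and a replicate block gave 56 and 32. Changes near 0 turned sign: CYP71B4 at -0.06 and KT2/3 at -0.11 without WT_dark replicate 1, both at -0.05 without replicate 1 of the quadruple mutant, and CYP86A1 at 0.09 with upper-quartile scaling; KT2/3 ran from -0.11 to 0.11 with a library left out. Under that scaling MIPS1 (-0.15, limma adjusted p = 0.06) and DIR1 (-0.03) lost their calls, and DIR1 also without replicate 1 of the mutant (-0.14); the cause was not tested. MYB93, fallen by 0.37, did not pass without replicate 1 or 2 of the dark wild type (adjusted p = 0.0541 and 0.0589) or without replicate 2 of the mutant (-0.20, adjusted p = 0.166). Over the 51 genes recomputed under these alternatives, the other 805 values kept direction and side of the threshold. With 2 libraries a group, small changes cannot be resolved, and genes with under 20 inferred reads in the dark wild type have uncertain folds.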
